A study of Mus musculus with 6 samples.

Results

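The mast cell genes described here are Hdc, Tpsab1, Tpsb2, Mcpt4, Cpa3, Cma1, Kit, Ms4a2, Fcer1a and Gata2. They were followed through every probe set of the Mouse430_2 array whose annotation names one of these symbols as its only gene. This gave 15 probe sets for 10 genes, of 45101 probe sets on the array and 18194 genes with a probe set of their own. RNA had been measured in cancer stromata of male B6 mice, 4 weeks after tumour cells were placed under the skin. The wild-type group (WT) held 3 mice, the group labelled Pdia4-/- (KO) held 3 mice, and each mouse had 1 array. Pdia4 is an enzyme that forms disulphide bonds in the endoplasmic reticulum, and by its title the series looks for pathways it controls in the stroma. The tumour was LLC (Lewis lung carcinoma) by the growth protocol but GK1 by the design text, which leaves the line unsettled. The labels do not say how the allele was made, how stroma was parted from tumour cells, or which genotype the tumour cells had.

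Mast cells are tissue-resident granulocytes that store histamine and proteases in granules bound to heparin. IgE held on the high-affinity Fc epsilon receptor, whose alpha chain is Fcer1a and whose beta chain is Ms4a2, triggers their release. The growth factor receptor Kit keeps the cells alive, and the transcription factor Gata2 is needed for their lineage and for their protease and receptor genes. Of the proteases, Tpsab1 and Tpsb2 are tryptases, Cma1 and Mcpt4 are chymases, and Cpa3 is a carboxypeptidase. In mice the connective tissue type of mast cell holds all of these, whereas Mcpt1 and Mcpt2 mark the mucosal type. Hdc, histidine decarboxylase, is the enzyme that makes histamine, and in mouse tumours it is also known from neutrophils and immature myeloid cells.

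Signals are linear intensities that the authors had scaled to a common target on each array, and each comes with a call on whether the transcript was detected (Present) or not. The arrays had 21202 to 22185 Present calls each. The main Pdia4 probe set read 3942, 2766 and 4104 in WT and 2324, 1521 and 1402 in KO. It was Present on all 6 arrays and lower on each KO array (log2 difference -1.06, SE 0.28, limma adjusted p = 0.161), and the labels do not place it relative to the deleted part. The other Pdia4 probe set, at 12.3 to 40.3 in WT and 18.1 to 65.3 in KO, was Present on 1 array and was not tested. KO replicate 3 carries another batch number in its file header than the other 5 arrays. Its log2 signals correlated with theirs at r = 0.889 to 0.946, against 0.941 to 0.970 among the 5, across probe sets that are not independent. Of the stromal markers, 6 of 6 for fibroblasts and 6 of 6 for macrophages were detected well enough to test. In bulk RNA, fewer cells of a type and less RNA per cell cannot be told apart.

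No mast cell probe set passed the test, and the genes did not share 1 direction. Histidine decarboxylase, the tryptase Tpsab1 and the chymases Mcpt4 and Cma1 read higher on every KO array than on any WT array. For the carboxypeptidase Cpa3 and the receptor chain Fcer1a the KO arrays lay within the WT range, and Gata2 read lower on every KO array. Testing required Present calls on 3 or more arrays, which 12 of the 15 had, with at least 1 for each gene. None of the 12 met it through the arrays of 1 group alone. By limma, 0 of the 12 had an adjusted p under 0.05, where 0.0272% of all 22063 tested probe sets did, and the members' adjusted p ran from 0.131 to 0.953.

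At an unadjusted p under 0.05, 4 of the 12 were higher in KO (33.3%), against 9.99% of all tested probe sets. These 4 stood for 3 genes, as both Hdc probe sets were among them. In the other direction 0 of the 12 were lower, against 10.2%. The groups did not overlap, with KO above, in 5 of the 12 (41.7%), against 13.5% of all probe sets, and with KO below in 2 of the 12, against 17.1%. The 5 stood for 4 genes, again with both Hdc probe sets, and the 2 were both of Gata2. On 1 probe set per gene, the tested one of highest mean, 9 genes were higher in KO and 1 was lower. The median of their log2 differences was 0.43, and that of all tested probe sets was -0.05. These shares and medians describe genes chosen with earlier results of these arrays known.

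**Figure D1:**
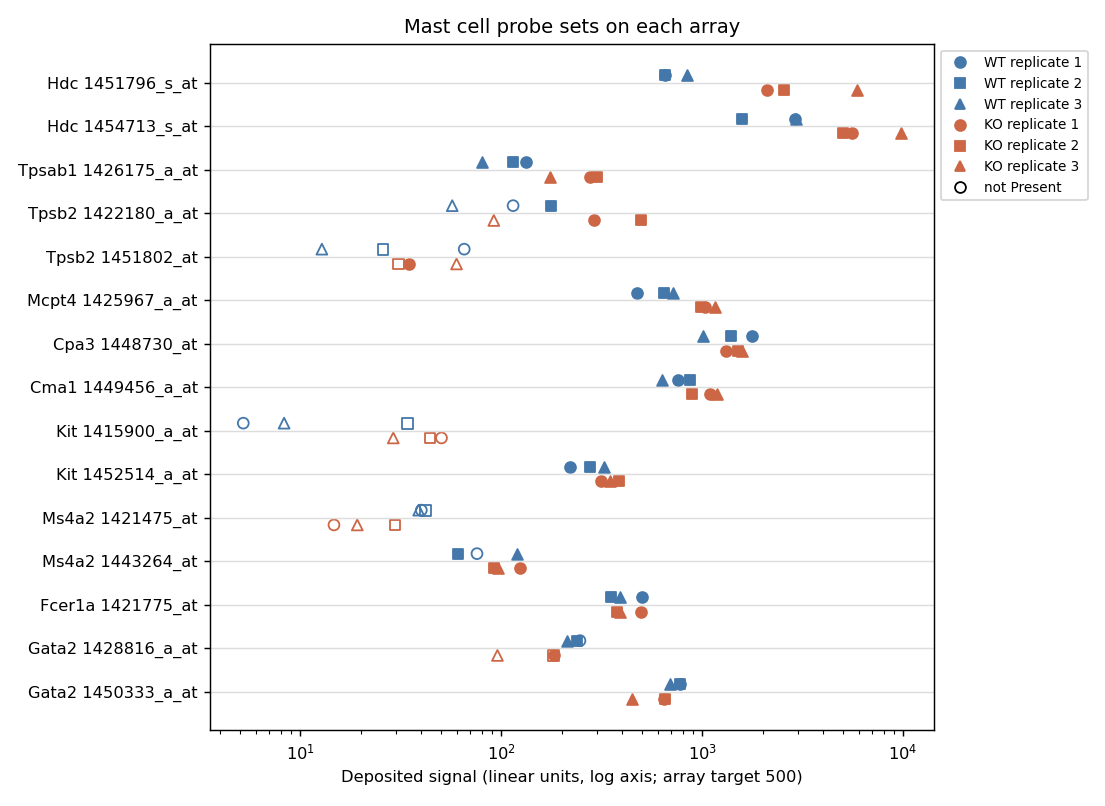
Deposited signal (log axis) of each of the 15 mast cell probe sets on the 3 WT and 3 KO arrays, with open symbols where the probe set was not Present. Both Hdc probe sets, Tpsab1, Mcpt4 and Cma1 have every KO array to the right of every WT array, while Cpa3 and Fcer1a overlap.

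GATA2 binds DNA at sites built around the letters GATA, so the promoters were read for these letters in the form GATAA alone. RefSeq windows of 250 bases before to 50 after the gene start (GRCm38.p6) were held for 8 of the 10 genes. The letters GATAA, read on both strands, occurred in the windows of Fcer1a, Cpa3, Cma1, Mcpt4 and Ms4a2, thus in 5 of the 8 genes and 5 of their 10 windows, Kit and Gata2 having more than 1, and in 25.4% of 32851 windows of this length over all genes. The letters CATGTG, an E-box of the kind bound by the mast cell factor MITF, occurred on either strand in 1 of the 10 windows, that of Fcer1a, and in 14.2% of all windows. The Fcer1a matches of both motifs did not overlap. Shown here are Hdc, Mcpt4, Cma1 and Cpa3. Hdc had the largest difference between the groups. The chymases Mcpt4 and Cma1 read higher on every KO array than on any WT array, and the Cpa3 groups overlapped. GATAA or its reverse TTATC is in capitals. The windows are chr2:126618629-126618928 (minus strand) for Hdc and chr14:56062261-56062560 (minus) for Mcpt4. They are chr14:55944626-55944925 (minus) for Cma1 and chr3:20242132-20242431 (minus) for Cpa3.
Hdc: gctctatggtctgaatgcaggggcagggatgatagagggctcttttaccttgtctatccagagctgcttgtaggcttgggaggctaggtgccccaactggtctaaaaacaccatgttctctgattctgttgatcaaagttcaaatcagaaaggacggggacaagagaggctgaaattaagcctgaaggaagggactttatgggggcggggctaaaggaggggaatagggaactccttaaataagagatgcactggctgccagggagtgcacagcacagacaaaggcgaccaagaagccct
Mcpt4: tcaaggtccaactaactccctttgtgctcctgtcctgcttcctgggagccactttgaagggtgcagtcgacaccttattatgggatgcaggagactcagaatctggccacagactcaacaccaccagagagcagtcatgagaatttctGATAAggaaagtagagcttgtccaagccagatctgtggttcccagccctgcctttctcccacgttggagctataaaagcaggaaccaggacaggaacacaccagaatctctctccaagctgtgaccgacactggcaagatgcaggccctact
Cma1: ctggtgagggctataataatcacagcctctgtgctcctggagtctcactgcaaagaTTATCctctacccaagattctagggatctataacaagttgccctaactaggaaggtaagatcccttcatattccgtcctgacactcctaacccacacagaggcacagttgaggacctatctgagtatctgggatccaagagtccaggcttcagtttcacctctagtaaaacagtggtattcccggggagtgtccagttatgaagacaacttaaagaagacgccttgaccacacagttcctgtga
Cpa3: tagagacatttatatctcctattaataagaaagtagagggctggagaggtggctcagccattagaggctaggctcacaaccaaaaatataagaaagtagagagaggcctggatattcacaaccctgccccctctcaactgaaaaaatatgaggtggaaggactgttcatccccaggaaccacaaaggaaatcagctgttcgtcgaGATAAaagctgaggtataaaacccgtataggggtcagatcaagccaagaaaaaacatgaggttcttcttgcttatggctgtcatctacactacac
The match began 45 bases before the start in Cpa3, 102 in Mcpt4 and 194 in Cma1, and Hdc had no GATAA in this window. Other forms around GATA were not counted, and the Hdc window does hold the letters gatag. A match of letters is a description, not a binding site.

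Hdc gave the largest difference of the 12 tested probe sets. Its dimmer probe set read 655, 656 and 841 in WT and 2090, 2562 and 5925 in KO. All 6 arrays were Present, the WT arrays lay close together, and the lowest KO array was above the highest WT array. Mean signals were 717 ± 107 for WT and 3526 ± 2091 for KO (SD, n = 3), a ratio of 4.92. The log2 difference was 2.15 (SE 0.39, 95% interval 1.24 to 3.07, limma unadjusted p = 7.28e-04, adjusted p = 0.131).

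The brighter Hdc probe set read 2907, 1569 and 2932 in WT and 5545, 5039 and 9764 in KO. Again every KO array lay above every WT array, and KO replicate 3 was the highest. Its log2 difference was 1.45 (SE 0.36, limma adjusted p = 0.151). Without KO replicate 3 the differences were 1.70 and 1.16, and over all single arrays left out they ran from 1.70 to 2.45 and from 1.15 to 1.63. The names of both end in _s_at, which by the array maker's naming marks probes that can match transcripts of several genes.

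The tryptases read low, and higher in KO with a wide spread. Tpsab1 read 133, 115 and 80.3 in WT and 276, 300 and 174 in KO. It was Present on all 6 arrays, and its lowest KO array, replicate 3, still lay above the highest WT array. The log2 difference was 1.18 (SE 0.30, 95% interval 0.49 to 1.88, limma adjusted p = 0.158). The array's design names the target of this probe set as a truncated Mcpt7 transcript, Mcpt7 being an older name of Tpsab1. C57BL/6 mice are known to carry a splice-site change that keeps this gene from giving an active tryptase.

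Tpsb2, the other tryptase, read 115, 177 and 57.0 in WT and 288, 497 and 91.8 in KO on its tested probe set. It was Present on 1 WT and 2 KO arrays, and KO replicate 3 fell among the WT values, so the groups overlapped. Its log2 difference was 1.17 (SE 0.66, limma adjusted p = 0.336). Leaving out KO replicate 3 moved it to 1.85, and leaving out KO replicate 2 gave the lowest value, 0.63. The other Tpsb2 probe set was Present on 1 array in all, read 12.8 to 65.4, and was not tested. On the tested probe sets of both tryptases the arrays of KO replicates 1 and 2 were the highest and WT replicate 3 the lowest. The tryptases are close relatives, and signal from one on the probes of the other was not tested.

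The chymases differed by less, with tighter groups. Mcpt4 read 475, 648 and 716 in WT and 1027, 984 and 1156 in KO. The groups stood apart on all 6 Present arrays, at 613 ± 124 and 1056 ± 89.5 (SD, n = 3). The log2 difference was 0.80 (SE 0.23, 95% interval 0.27 to 1.33, limma adjusted p = 0.167), and it stayed between 0.63 and 0.92 with any 1 array left out. Cma1 read 757, 867 and 628 in WT and 1099, 886 and 1187 in KO. Its groups also did not overlap, but KO replicate 2 lay close to the highest WT array. The log2 difference was 0.50 (SE 0.22, 95% interval -0.03 to 1.02, limma adjusted p = 0.263).

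Cpa3, the granule carboxypeptidase, showed no such separation. It read 1778, 1396 and 1008 in WT and 1309, 1501 and 1573 in KO, Present on all 6 arrays. The KO arrays all fell inside the WT range. The log2 difference was 0.10 (SE 0.26, 95% interval -0.50 to 0.70, limma adjusted p = 0.837).

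The receptor genes overlapped between the groups. Fcer1a, the chain of the Fc epsilon receptor that binds IgE, read 501, 352 and 389 in WT and 497, 376 and 389 in KO. The KO values fell within the WT range, with a log2 difference of 0.03 (SE 0.23, 95% interval -0.51 to 0.56, limma adjusted p = 0.953). Ms4a2, the beta chain, was tested on a probe set that read 75.7, 61.1 and 120 in WT and 124, 92.5 and 96.1 in KO (log2 difference 0.33, SE 0.29, limma adjusted p = 0.524). The difference was 0.12 without WT replicate 2, 0.20 without KO replicate 1 and 0.60 without WT replicate 3. The array's design names that target only as an expressed sequence tag, and the platform annotation ties it to Ms4a2. The Ms4a2 probe set designed from the full mRNA, which the design still lists as Ms4a1, was Present on 0 arrays, at 38.8 to 42.0 in WT and 14.7 to 29.6 in KO, and was not tested.

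Kit, the receptor for stem cell factor, was split in the same way. Its tested probe set read 219, 278 and 326 in WT and 315, 386 and 348 in KO, and the groups overlapped (log2 difference 0.36, SE 0.23, limma adjusted p = 0.373, or 0.21 on the log2 scale without WT replicate 1). By the array's design this target is a truncated c-kit mRNA. The probe set built from the full Kit mRNA was Present on 0 arrays, with 5.20 to 34 in WT and 29.0 to 50.4 in KO. Thus the defining surface markers Kit and Ms4a2 had no Present call on the probe sets built from their full-length mRNAs.

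Gata2 was the only one of the 10 genes whose tested probe sets read lower in KO. Its brighter probe set read 777, 775 and 692 in WT and 644, 655 and 449 in KO, Present on all 6 arrays. The KO values were all lower than the WT values, KO replicate 3 the most. The log2 difference was -0.38 (SE 0.22, limma adjusted p = 0.358), and -0.20 without KO replicate 3. On the dimmer Gata2 probe set, Present on 3 arrays, the values were 246, 237 and 212 against 184, 182 and 95.7. That probe set had -0.65 (SE 0.29, limma adjusted p = 0.263), or -0.34 without KO replicate 3.

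**Figure D2:**
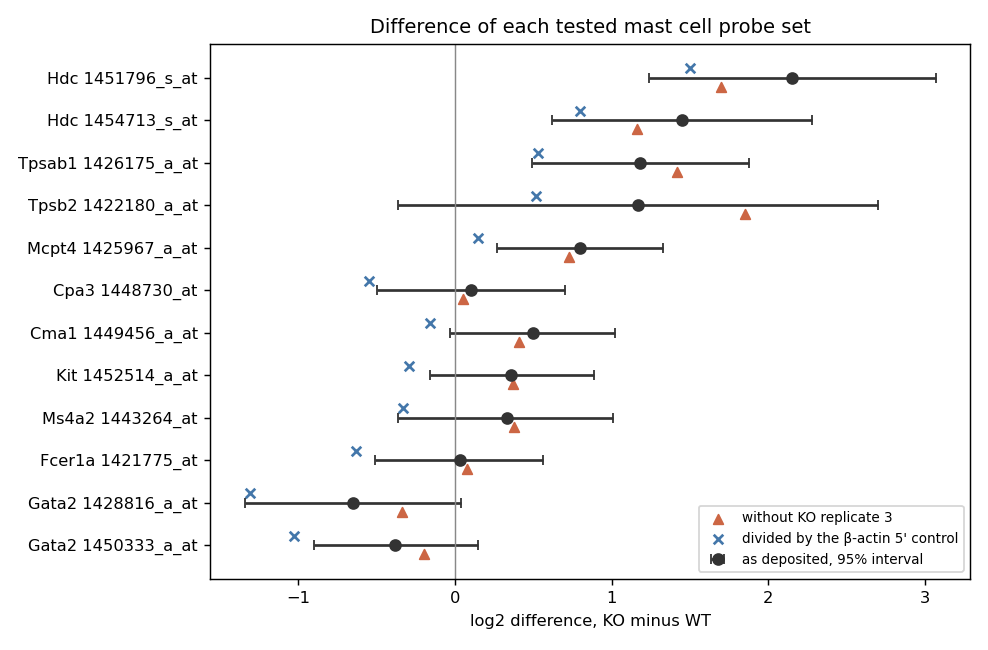
log2 difference, KO minus WT, of the 12 tested mast cell probe sets. Black points with bars are the deposited signals with 95% intervals from limma (n = 3 and 3), triangles leave out KO replicate 3, and crosses are the values relative to the β-actin 5' control, where Cpa3, Cma1, Kit, Ms4a2 and Fcer1a lie below 0.

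The authors' own table scaled the signals in another way. The authors' deposited table lists 1554 of the 45101 probe sets, 1488 with positive and 66 with negative folds. Its smallest fold is 2.401 in size, so smaller differences do not stand in it. Of the 15 member probe sets it holds 1, the dimmer one of Hdc, with a fold of -3.203. The deposited signals give that probe set a KO mean 4.92 times that of WT. For all 1554 probe sets the listed fold equalled, within 0.001 of its value, a ratio of WT to KO group means. Each mean of the deposited signals was divided by its group's mean of the β-actin 5' control. A ratio below 1 stood as minus its inverse. A negative sign in that table therefore stands for higher in KO, opposite to the direction used here. The control itself averaged 20005 ± 6549 in WT and 30703 ± 6830 in KO (SD, n = 3), which made the divisor 1.535 times as large in KO. Its 3' to 5' ratio, a measure of RNA integrity, was 1.66 to 4.26 in WT and 1.51 to 1.99 in KO.

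Each array was then scaled by its own value of this control, not by the group means that match the authors' table. Such scaling subtracts the same amount from every log2 difference. The group means of the control differ by 0.618 on the log2 scale, and scaling by array shifted the median over all probe sets by -0.65. Any positive difference smaller than this shift therefore turns sign by construction. This left Hdc at 1.50 and 0.80, Tpsab1 at 0.53, Tpsb2 at 0.52 and Mcpt4 at 0.15. Cma1 turned to -0.16, Kit to -0.29, Ms4a2 to -0.33, Cpa3 to -0.55 and Fcer1a to -0.63, and Gata2 read -1.03 and -1.31. The other scalings, by the 75th percentile, by quantiles and by cyclic loess, turned none of the 12.

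Ratios within an array do not depend on its scaling. Each member was therefore set against Cpa3 on the same array, a comparison chosen after the values had been seen. The dimmer Hdc probe set had log2 ratios of -1.44 to -0.26 in WT and 0.68 to 1.91 in KO. For Tpsab1 they were -3.74 to -3.60 in WT, closely grouped, and -3.17 to -2.25 in KO. In 3 of the 11 comparisons, both Hdc probe sets and Tpsab1, every KO array lay above every WT array. The exact two-sided permutation p was 0.1 for each, the smallest that 3 against 3 arrays can give, or 0.367 adjusted over the 11. In the other 8 the groups overlapped, Mcpt4 by its highest WT array, replicate 3, and both Gata2 probe sets by WT replicate 1.

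**Figure D3:**
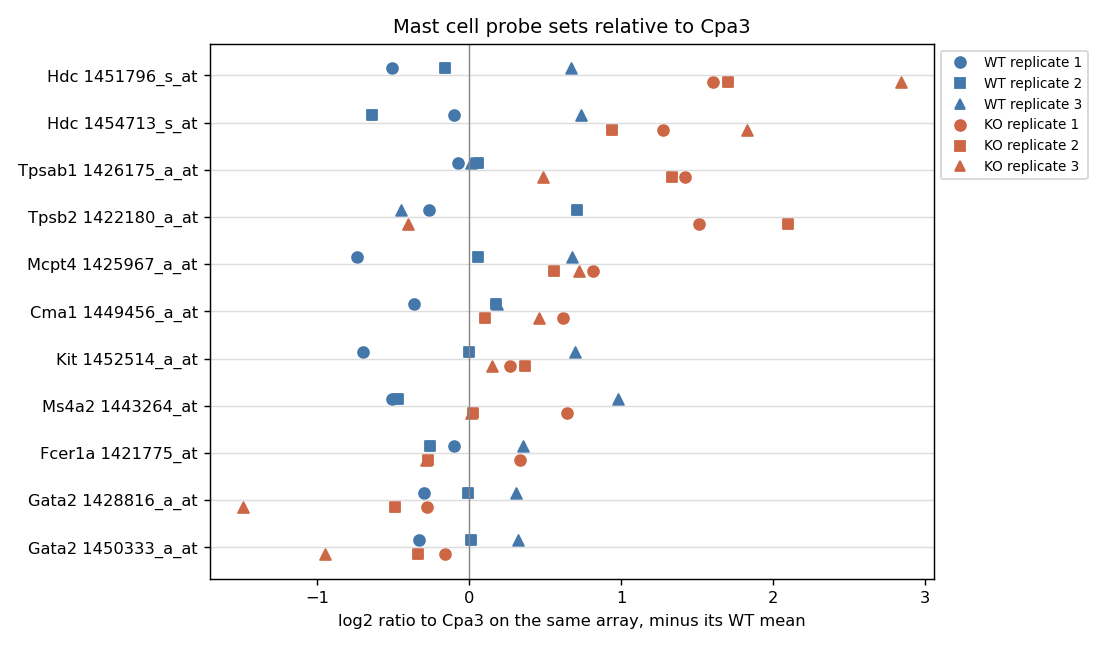
log2 ratio of each tested mast cell probe set to Cpa3 on the same array, minus the WT mean of that ratio, with 1 point per array. The KO points of both Hdc probe sets and of Tpsab1 lie to the right of all 3 WT points, and those of the other 8 probe sets do not separate.

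Other genes of mast cell function were read from lists, on 1 probe set per gene. Of all tested probe sets 46.6% were higher in KO, with 9.99% of all at an unadjusted p under 0.05, which is the background for each count. Among granule genes 6 of 6 tested were higher in KO, with a median log2 difference of 0.33. The groups overlapped in all 6, and 0 of them had an unadjusted p under 0.05 by limma. Srgn had only 0.09 (SE 0.24) and Ndst2 0.10 (SE 0.20). Ctsg had the largest difference, 2.00, with a wide spread (SE 1.73). It read 81.0, 40.6 and 3353 in WT and 379, 5165 and 361.5 in KO. Gzmb, a granule serine protease of cytotoxic and mast cells, had 0.45 (SE 0.30), or 0.18 without KO replicate 3, and Ctsc, the protease that activates granule enzymes, had 0.32 (SE 0.23), but 1.80 and 1.51 on its dimmer probe sets. Mcpt2 of the mucosal type read 206 to 701 in WT and 357 to 567 in KO, and Mcpt1 was never Present. Of the genes that break down or sense histamine only 2 of the 6 on the array were tested. Hnmt, which methylates histamine, had 0.56 (SE 0.34) and the receptor Hrh2 had 0.48 (SE 0.32), which became 0.24 and 0.17 without WT replicate 2, while Aoc1, Hrh3 and Hrh4 were never Present.

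Downstream of the Fc epsilon receptor, 10 of 11 tested genes were higher in KO, 6 of them at an unadjusted p under 0.05 (9.99% of all probe sets) and 0 at an adjusted p under 0.05 by limma. The adaptor Lcp2 had a log2 difference of 1.07, the kinase Syk 1.28, the adaptor Lat2 1.20 and the phospholipase Plcg2 0.55 (limma adjusted p = 0.142 to 0.216). These genes work in macrophages, neutrophils and B cells as well. The dimmer tested probe sets gave 0.74 for Lcp2, and 0.81 and 0.11 for Syk. Of growth factor genes 4 of 7 were higher, 3 at an unadjusted p under 0.05 (9.99% of all probe sets), with Csf2rb2 at 1.43, Csf2rb at 1.02, both signalling chains of the interleukin-3 receptor family and near-identical in sequence, and the phosphatase Ptpn6 at 0.63. Kitl, the ligand of Kit, read 3548, 3597 and 2832 in WT and 3188, 1800 and 617 in KO. Its values overlapped between the groups and differed most on KO replicate 3 (log2 difference -1.12, SE 0.54, limma adjusted p = 0.287, or -0.47 on the log2 scale without it), while 3 dimmer Kitl probe sets had values from -0.18 to 0.08.

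Of the transcription factors 7 of 9 were higher in KO, 1 at an unadjusted p under 0.05, a share near the 9.99% of all probe sets. Mitf, a factor of mast cells and melanocytes, had 0.62 and Spi1, a factor of myeloid cells, 0.70 (limma adjusted p = 0.245 and 0.249). Of the lipid mediator enzymes 5 of 6 were higher, 2 of these with an unadjusted p under 0.05 (9.99% of all probe sets). The remaining enzyme was lower at that level, as were 10.2% of all. Hpgds, which makes prostaglandin D in mast cells, read 78.7, 63.2 and 35.0 in WT and 149, 122 and 132 in KO (log2 difference 1.26, SE 0.32, limma adjusted p = 0.158). Every KO array was above every WT array, although only 1 WT array was Present. Ltc4s, the leukotriene C synthase, read lower in KO, at 1345, 1298 and 904 against 537, 549 and 871 (-0.87, SE 0.28, limma adjusted p = 0.182). Ptgs2, the inducible prostaglandin synthase, had 1.34, or 0.73 without KO replicate 3, and read 38597 on KO replicate 3 against 13774 and 8422 on the other KO arrays.

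Among further surface genes of mast cells, 3 were tested and 1 was higher. Siglecf, a lectin of eosinophils and some mast cells, had 1.45 (SE 0.60, limma adjusted p = 0.239), or 0.67 without WT replicate 2. Enpp3, a surface enzyme of mast cells and basophils, was Present on the 3 WT arrays and on 0 KO arrays of one probe set, where it was at least 4.09-fold lower in KO. It passed the filter through WT alone, so its place among the tested genes supports nothing. The other 4 Enpp3 probe sets were Present on 0 to 3 arrays each, and their log2 differences ran from -0.06 to 1.69. Mrgprb1, a receptor of connective tissue mast cells, was Present on 1 array.

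Markers of other cell types were read beside these, 0 of them at an adjusted p under 0.05 by limma, and their part in the mast cell values was not tested. Neutrophil markers were higher in KO for 9 of 9 tested, 3 at an unadjusted p under 0.05 by limma, with Csf3r, the G-CSF receptor, at 1.42 (SE 0.25, adjusted p = 0.130). One of these, Cxcr2, was Present on KO arrays alone, and without it the counts were 8 of 8 and 2. The summed signal of all 9 neutrophil markers, Cxcr2 included, was 71986 to 286229 in WT and 162937 to 228541 in KO. S100a8 and S100a9 gave most of this sum, at 33696 to 85107 and 32827 to 88766 in WT. Csf3r, by contrast, read 1905 to 2299 in WT and 4582 to 7424 in KO. S100a8, S100a9, Camp and Ngp read highest on WT replicate 3, and the other neutrophil markers on a KO array. Macrophage markers were higher for 5 of 6, with Itgam at 1.24, Cd68 at 0.74, Fcgr1 at 0.49, Csf1r at 0.20 and Adgre1 at 0.07. Mertk had -0.12. Macrophage markers summed to 41458 to 63895 in WT and 51649 to 79343 in KO. Endothelial markers, of cells that also use Gata2, were higher for 6 of 6, 3 at an unadjusted p under 0.05. Pecam1 and Tie1 were Present on KO arrays alone, and without them the counts were 4 of 4 and 2. The sums over all 7 endothelial markers, Pecam1 and Tie1 included, were 705 to 824 in WT and 1211 to 1669 in KO. Among stem and progenitor markers 2 of 4 were higher, with Cd34 at 0.23 and Meis1 at -0.88, and the sums were 829 to 1671 and 818 to 1641. Fibroblast markers were higher for 2 of 6, with Col1a1 at 1.70 and Pdgfra at -1.13, and summed to 61345 to 63642 in WT and 39125 to 52830 in KO. Of 6 melanocyte markers 5 were never Present and none was tested.

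Basophils share Hdc, Fcer1a, Ms4a2 and Gata2 with mast cells. Their protease Mcpt8 read 104, 83.2 and 576 in WT and 124, 374 and 152 in KO, and Cd200r3 and Itga2 were never Present. The summed basophil signal was 150 to 695 in WT and 204 to 427 in KO. Mcpt8 was high on WT replicate 3 and KO replicate 2, and so were genes of blood precursors picked after their values were seen. Mpo, an enzyme of granulocyte precursors, had signals of 7787 and 8341 there and of 12.0 to 437 elsewhere. Gata1 read 573 and 435 on those arrays and 27.3 to 93.0 on the rest, and Prg2, an eosinophil granule protein, 458 and 456 against 3.20 to 67.5. Eosinophil markers as a whole summed to 12.5 to 598 in WT and 62.5 to 580 in KO, with Ccr3 never Present. The 10 mast cell genes had centred log2 signals of -1.46 to 0.38 on WT replicate 3 and of -0.14 to 1.66 on KO replicate 2, and none had those arrays as its highest pair.

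**Figure D4:**
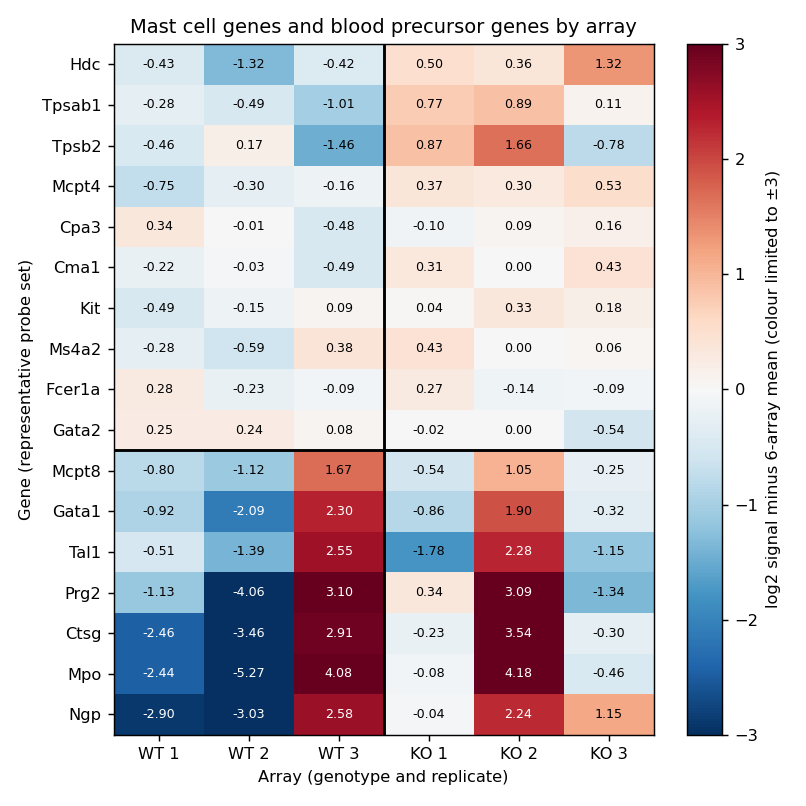
log2 signal minus the gene's mean over the 6 arrays, 1 column per array, for the 10 mast cell genes (upper block) and 7 genes of basophils, eosinophils and blood precursors (lower block). The lower block, picked after the values were seen, is high on WT replicate 3 and KO replicate 2, at 1.05 to 4.18. Ngp also stands at 1.15 on KO replicate 3. No mast cell gene has WT replicate 3 and KO replicate 2 as its highest pair.

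The proteases were last compared with all other genes by profile. The mean centred profile of Tpsab1, Tpsb2, Mcpt4, Cpa3 and Cma1 was -0.27, -0.13 and -0.72 in WT and 0.44, 0.59 and 0.09 in KO. It averages unlike genes, as Tpsb2 ran from -1.46 to 1.66 over the 6 arrays and Cpa3 from -0.48 to 0.34. A gene near this mean is therefore not near each protease. Of 11347 other tested genes the nearest was Amz1, a predicted metallopeptidase, with a mean absolute difference of 0.070 log2 units over the 6 arrays. It read 194, 245 and 160 in WT and 353, 419 and 261 in KO. Next came Tmem140 (0.100), Tmem69 (0.103), Rhbdf2 (0.103), a partner of the protease ADAM17, and Sdc3 (0.107), a heparan sulphate proteoglycan. The limma log2 differences of these 5 genes were 0.70 to 0.95, and 0 of them had an adjusted p under 0.05. On all 5 the KO arrays lay above the WT arrays, as the protease profile itself does.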

How the data were processed

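Each of 6 mice, 3 WT and 3 KO, had 1 Affymetrix Mouse430_2 array. The deposited intensity values were made by the Statistical algorithm with a target of 500 and calls at alpha1 0.05, alpha2 0.065 and tau 0.015, per the file headers of the expression report of 1 array. No label or header used here gives a software version. The mean after trimming 2% at each end was 500 on every array. The authors' deposited table of signed folds, treated as a score, was exported from a pathway program, per the file headers. The value table held the same values in 270606 of 270606 cells, to 1 decimal.

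The log2 of the signals as deposited was compared between KO and WT with limma 3.58.1 in R 4.3.3 (lmFit, eBayes, two-sided, no covariates), after leaving out 64 control probe sets and keeping those Present on at least 3 arrays (22063). No pseudocount was added. Adjustment was by Benjamini-Hochberg over this whole set, with a call under 0.05. The fit was tested on simulated data. Symbols came from the platform annotation (34958 probe sets with 1 symbol, 932 with several, 9211 with none), and 34754 matched a reference gene table by Entrez ID, with 0 symbols changed. Where the lower group had no Present array, a fold is "at least": on each array of that group the probe set is set to the lowest Present signal, unless it lies above it.

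The members and lists were chosen with earlier results of these data known. Named genes are all 10 members, up to 4 genes of smallest p per list, marker genes needed to say which are not Present, and the 5 genes nearest to the protease profile. Other genes named were picked after their values were seen. Nothing in the labels says whether the mice were handled apart, so p-values cover only the spread of these samples, which may be technical. The number of arrays limits the precision. Alternatives were 3 scalings, the value table, 2 filters, a replicate block, array weights, trend and robust moderation, a pseudocount of 16, leaving out each array, averaging a gene's probe sets and, chosen after seeing the data, scaling by the β-actin 5' control and ratios to Cpa3 on the same array.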

Additional observations from a re-analysis of the deposited data

How the results depend on the processing

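No member passed an adjusted p under 0.05 in any alternative run, by limma, and the count at an unadjusted p under 0.05 was 2 to 6 of those tested, against 4 as reported. The 6 calls over all probe sets became 1 with 75th percentile scaling, 0 with quantile normalization, cyclic loess, no filter, Present calls on all 6 arrays or the replicate block, 19 with array weights, 27 with trend and robust moderation, 11 with a pseudocount of 16 and 1135 when arrays were scaled by the β-actin 5' control. With 1 array left out there were 0 to 2. In the fits with 0 calls, 1650 to 2919 probe sets were higher and 1301 to 2620 lower at an unadjusted p under 0.05. The split of calls was 5 higher and 1 lower as reported, 1 and 0 with 75th percentile scaling, and 82 and 1053 with β-actin 5' scaling. In the β-actin fit limma's prior degrees of freedom were infinite, against 3.46 as reported, so every probe set was given the same standard error, and its counts of calls are not comparable with the others. That scaling left 1 member probe set with every KO array above every WT array, against 5, moved the members' median to -0.22 and left 16 other list genes at an unadjusted p under 0.05, against 28. It turned Cpa3 to -0.55, Cma1 to -0.16, Kit to -0.29, Ms4a2 to -0.33 and Fcer1a to -0.63, and by construction it lowers every log2 difference by the same amount. The median was 0.53 with cyclic loess and 0.39 to 0.55 with 1 array left out. With 1 array left out Cpa3 ran from -0.11, without WT replicate 3, to 0.30, and Fcer1a from -0.10 to 0.17. Fcer1a read -0.08 without WT replicate 2, -0.01 without WT replicate 3 and -0.10 without KO replicate 1, and the cause was not tested. The other 194 of 203 values of members kept their direction and side of the threshold. Among the 203, the value table, the filters, the replicate block and trend and robust moderation could not change a direction. They leave each log2 difference as it was by construction. Same-numbered arrays did not deviate together (r = 0.157, 0.025 and -0.101). With 3 arrays per group this cannot settle whether the numbers pair samples, and the labels do not say. The replicate block called 0 members, and the members' median stayed at 0.43, as it must in a balanced design. Signals near the background, as for the untested Kit and Ms4a2 probe sets, limit what can be said of them.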
